A study of Mus musculus with 6 samples.

Results

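The genes described here are those of the mouse major histocompatibility complex (MHC), named H2, together with the chains and transporters their products need. They were taken as every probe on the array whose gene name began with H2-, plus the probes of B2m, Cd74, Tap1, Tap2 and Tapbp. This gave 41 genes with 63 probes, of 27962 gene names with 41174 probes on the array. By gene, 25 were class I heavy chains (38 probes) and 10 were class II chains or their partner Cd74 (16 probes). A further 4 were the class I light chain and peptide-loading genes (7 probes), and 2 carried an H2- name but belong to neither class.

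Liver RNA was measured in SIRT1 LKO mice, in which the NAD-dependent deacetylase SIRT1 had been deleted in the liver, and in Lox control mice. All animals were male, 10 weeks old, on a 95% C57BL/6 background and on chow, ate freely until they were killed at 4 pm. Each pool held RNA of 2 animals, and 3 LKO pools and 3 control pools were each hybridised to one array, so single animals cannot be told apart. The Cre driver of the deletion, and so which liver cells carried it, is not stated in the sources at hand.

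MHC class I molecules consist of a heavy chain and the light chain B2m. They carry peptides made in the cytosol, moved into the endoplasmic reticulum by Tap1 and Tap2, to CD8+ T cells, and they are made by most cells, hepatocytes included. MHC class II molecules carry peptides from endosomes to CD4+ T cells. They are made mainly by antigen-presenting cells, which in liver include Kupffer cells, dendritic cells and B cells, under the control of the co-activator Ciita.

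Signal is given as log2 intensity minus the 75th percentile of the array, and differences are LKO minus control on that log2 scale. Probes of 1 gene are numbered by mean signal, brightest first, and signals of different probes are not compared with each other. To be tested, a probe had to be flagged as well above background on every array of 1 genotype or the other. Of the 63 probes 49, from 30 genes, met this, and 47 of them were well above background on all 6 arrays. Probe 1 of H2-T24 and probe 2 of H2-Oa passed through the LKO arrays only. Each difference was tested with limma and adjusted by Benjamini-Hochberg over 23592 probes. As each array carried 1 pool, the p-values reflect the spread between pools.

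The 75th percentile of intensity lay between 1005 and 1289 on the 6 arrays, the highest being LKO pool 3, and 52.2% to 66.4% of probes exceeded background clearly by the scanner flag. The control arrays shared slide 1, LKO pools 1 and 2 shared slide 2 and LKO pool 3 was on slide 3, so slide and genotype cannot be told apart. The files hold LKO pool 3 in 2 versions. The scanner file, used here throughout, and the deposited value table were within 1% of each other for 0.853% of probes of that pool, against about 99.8% in each of the other 5 samples. Results that depend on this pool are therefore given for both versions, and with the pool left out. The liver label held up against hepatocyte markers, of which all 7 found on the array were measured, Alb and Fgb lying above 8 log2 units on every array. The hepatocyte markers Cps1 and Fgb both differed by 0.18 (adjusted p = 0.296 and 0.517). Sirt1 itself differed by -0.24 (adjusted p = 0.243) and -0.02 (adjusted p = 0.941) at its 2 probes.

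Across the MHC genes, 0 of 49 probes passed an adjusted p of 0.05 (limma), beside 15 of 23592 probes on the array, or 0.0636%. At an unadjusted p under 0.05 there were 5 MHC probes, 2 higher and 3 lower in LKO livers, beside 21.2% of all tested probes (10.7% higher and 10.5% lower). The LKO and control pools did not overlap for 2 higher and 3 lower MHC probes, beside 14.9% higher and 13.9% lower over the array, or 28.8% in either direction. These shares lay below those of the array as a whole. The 5 probes were 2 of H2-Bl, 1 of H2-T22, 1 of Tap1 and 1 of H2-Ke6. Lower signal in LKO livers was seen for 30 of 49 MHC probes, beside 47.3% of all tested probes.

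**Figure D1:**
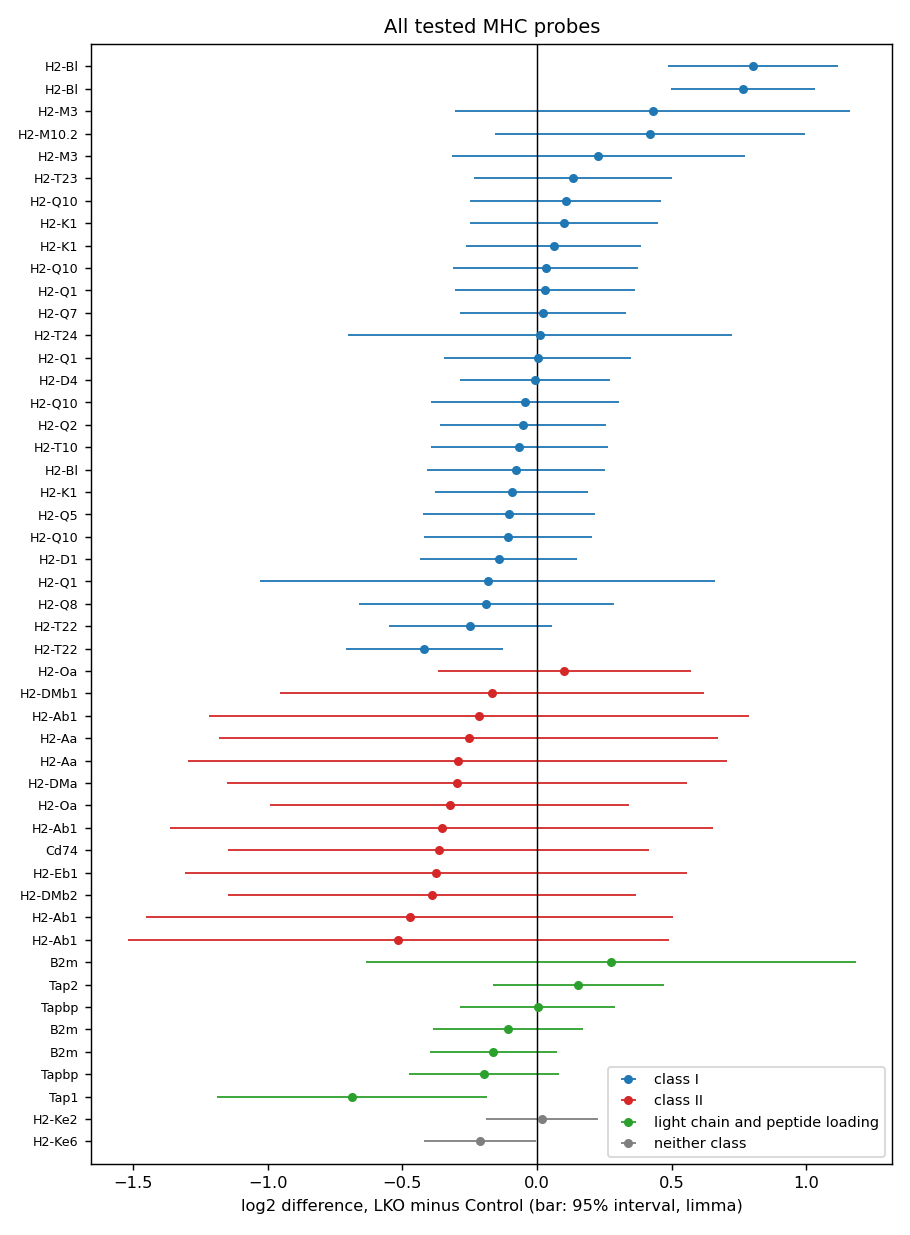
LKO minus control log2 difference of the 49 tested probes, one per row and grouped by class, with 95% intervals from limma. The intervals of 2 H2-Bl probes lie above 0, those of 1 H2-T22 probe, Tap1 and H2-Ke6 lie below 0, and all others cross 0. The class II intervals are the widest as a group, with a median standard error of 0.39, beside 0.14 for class I.

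The classical class I heavy chains H2-K1 and H2-D1 display peptides to CD8+ T cells. H2-K1 probe 1 (chr17:32074445-32074504, mm7, minus strand) had 8.08, 8.09 and 7.63 in LKO pools 1, 2 and 3, against 7.79, 7.86 and 7.84 in control pools 1, 2 and 3. LKO pools 1 and 2 were the highest of the 6 and LKO pool 3 the lowest. The difference was 0.10 (SE 0.15, adjusted p = 0.721), with 7.93 ± 0.26 in LKO and 7.83 ± 0.04 in control livers (SD, n = 3 each). H2-K1 probe 2 had 6.53, 6.69 and 6.23 in LKO pools, against 6.39, 6.46 and 6.42 in control pools (difference 0.06, adjusted p = 0.821). H2-K1 probe 3 had 5.75, 5.85 and 5.52 in LKO pools, against 5.79, 5.88 and 5.74 in control pools (difference -0.09, adjusted p = 0.678). LKO pool 3 was the lowest on these as well. H2-D1 probe 1, whose 60 bases span 233 bases of the genome and so cross an intron, had 6.75, 6.85 and 6.52 in LKO pools, against 6.95, 6.87 and 6.73 in control pools. The groups overlapped, and the difference was -0.14 (SE 0.12, adjusted p = 0.530). The other probe named H2-D1 was not well above background on any array. No probe on the array was named H2-L, the third classical heavy chain of some strains.

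H2-Q10 encodes a class I heavy chain that the liver secretes in soluble form, and it had 4 probes. Probe 1 had 7.98, 7.91 and 7.50 in LKO pools, against 7.80, 7.89 and 7.84 in control pools. Probe 3 had 7.87, 7.73 and 7.40 in LKO pools, against 7.42, 7.60 and 7.65 in control pools. LKO pool 3 was the lowest of the 6 on both, and LKO pools 1 and 2 the highest. Probe 2 had 7.84, 7.79 and 7.38 in LKO pools, against 7.56, 7.71 and 7.65 in control pools. Probe 4 had 6.93, 6.88 and 6.54 in LKO pools, against 6.94, 6.92 and 6.81 in control pools, with control pool 1 the highest and LKO pool 3 the lowest. The differences of the 4 probes were -0.05, 0.03, 0.11 and -0.11, with adjusted p between 0.668 and 0.918. H2-T23 encodes Qa-1, which presents signal-sequence peptides to receptors of natural killer cells. It had 7.36, 7.46 and 6.92 in LKO pools, against 7.10, 7.09 and 7.15 in control pools, a difference of 0.13 (SE 0.15, adjusted p = 0.646). Other genes with H2-Q names also had LKO pool 3 lowest. H2-Q5 had 7.62, 7.64 and 7.23 in LKO pools, against 7.60, 7.64 and 7.56 in control pools (difference -0.10, adjusted p = 0.684). By its coordinates the H2-Q5 probe (chr17:34255077-34255511, mm7) lies nearer the H2-T10 probe (chr17:34262303-34262362) than the other H2-Q probes. Its place in the Q region is therefore uncertain. H2-Q2 had 6.96, 7.06 and 6.66 in LKO pools, against 7.0, 6.95 and 6.87 in control pools (difference -0.05, adjusted p = 0.845). H2-Q1 probe 1 had 6.85, 7.06 and 6.55 in LKO pools, against 6.74, 6.89 and 6.83 in control pools (difference 0.00, adjusted p = 0.994). That H2-Q1 probe is described in the files by a transcript of Q region locus 4, so its gene name is uncertain.

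Several of these probes may not separate one class I gene from another, since their 60 bases share long runs, shown here in capitals. Probe 1 of H2-Q10 (chr17:33574106-33574165, mm7, plus strand) and the probe of H2-Q5 (chr17:34255077-34255511, mm7, minus strand, crossing an intron) share 35 bases, and those of H2-Q7 (chr17:33494682-33494913, plus strand) and H2-T23 (chr17:34134435-34134671, minus strand) share 28.
H2-Q10: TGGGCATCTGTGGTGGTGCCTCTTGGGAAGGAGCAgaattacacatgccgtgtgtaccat
H2-Q5: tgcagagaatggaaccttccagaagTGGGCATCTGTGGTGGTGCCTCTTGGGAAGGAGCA
H2-Q7: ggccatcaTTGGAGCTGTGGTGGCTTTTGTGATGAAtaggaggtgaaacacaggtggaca
H2-T23: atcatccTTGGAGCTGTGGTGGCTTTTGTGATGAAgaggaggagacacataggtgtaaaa
Probe 3 of H2-K1 and probe 4 of H2-Q10 share 20 bases. Signals of these genes are therefore uncertain as measures of a single gene.

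Over all 27 tested class I probes the median difference was 0.00, with 14 higher and 13 lower, beside a median of 0.02 over all tested probes. That median sits between LKO pools that stood apart from each other. Of the 16 class I probes with a mean signal above 5, all 16 had LKO pool 3 as the lowest of the 6 pools, beside 39.8% of the 1248 tested probes on the array with a mean above 5. LKO pool 3 differed from the mean of LKO pools 1 and 2 by a median of -0.40 on these 16 probes, beside -0.18 over those 1248. In the value table the same pool was the highest of the 6 for 15 of the 16, beside 29.6%. With the value table the class I median was 0.21, with 25 of 27 probes higher in LKO livers, beside 13148 of 23592 tested probes. LKO pools lay above all control pools for 10 of the 27, beside 19.1% of all tested probes. Among the 16 bright class I probes this held for 8, beside 461 of the 1248. Without LKO pool 3 the class I median was 0.15, with 24 of 27 higher, beside 12492 of 23592. Under the value table, 0 class I probes passed the threshold (lowest adjusted p = 0.0599, limma), beside 1.31% of all tested probes, and without LKO pool 3 there was 1, beside 2.96%.

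**Figure D2:**
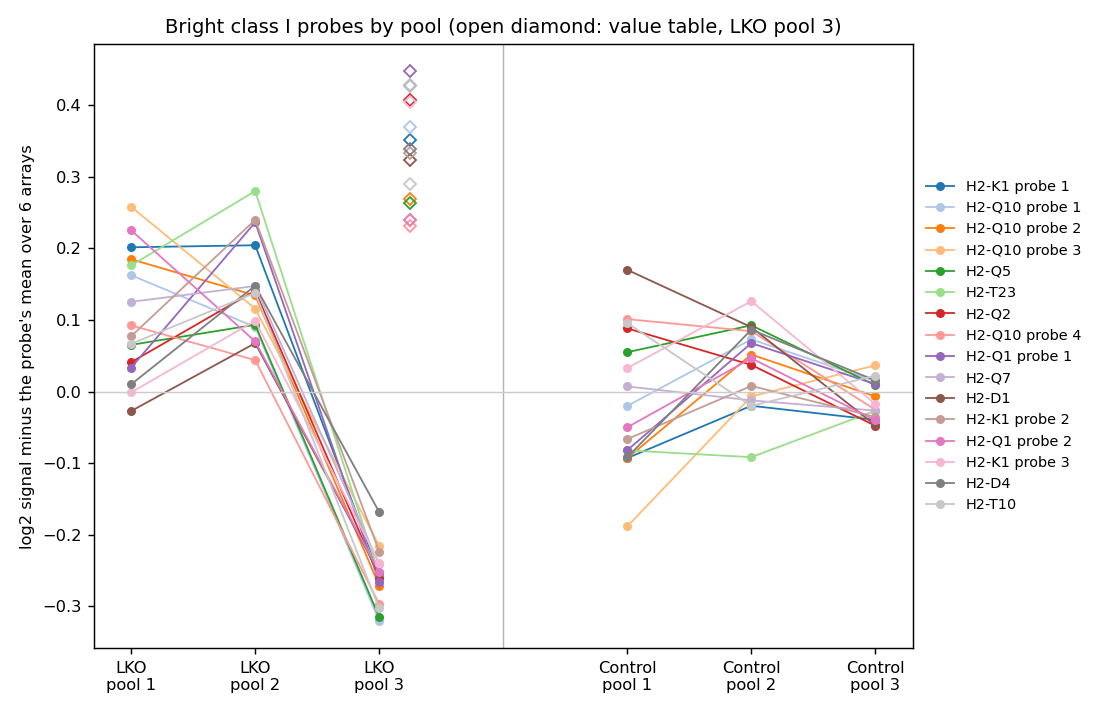
Signal of the 16 class I probes with a mean above 5 in each LKO pool (left) and each control pool (right), as log2 signal minus the mean of the probe over the 6 arrays. Lines join values of 1 probe and imply no order of pools; open diamonds are the value table's values for LKO pool 3. LKO pool 3 is the lowest of the 6 for all 16 probes in the scanner file and the highest for 15 of 16 in the value table.

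H2-Bl, a non-classical class I gene first described in blastocysts, held the largest differences among the 49 tested MHC probes. Its 3 probes lie on an unplaced sequence of mm7 (minus strand). Probe 2 (positions 9967736-9967795) and probe 3 (positions 9967766-9967825) are at the downstream end and share 30 bases, so they read overlapping stretches of transcript. Probe 1 (positions 9969247-9969306) lies upstream of both. The run that both probes share is shown with no part in capitals.
H2-Bl shared run: gctcaaatctttgagctgagggttgattag

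H2-Bl probe 2 had -1.75, -1.80 and -1.54 in LKO pools, against -2.54, -2.36 and -2.48 in control pools. Every LKO pool was above every control pool. The mean was -1.70 ± 0.14 in LKO and -2.46 ± 0.09 in control livers (SD, n = 3 each), 1.70-fold higher (difference 0.76, 95% interval 0.50 to 1.03, adjusted p = 0.0733). Probe 3 had -3.50, -3.47 and -3.23 in LKO pools, against -4.25, -4.01 and -4.35 in control pools, 1.74-fold higher and also without overlap (difference 0.80, SE 0.13, adjusted p = 0.078). Neither passed the threshold. Without LKO pool 3, probe 2 differed by 0.69 and passed (adjusted p = 0.0477), the only MHC call in any setting run, beside 2.96% of all tested probes called in that setting, and probe 3 differed by 0.72 (adjusted p = 0.0525). Over 16 alternative settings, probe 2 differed by 0.69 to 0.86 with adjusted p between 0.0477 and 0.720. Probe 1, upstream, had 3.04, 3.26 and 2.80 in LKO pools, against 3.15, 3.17 and 3.01 in control pools, which overlap (difference -0.08, SE 0.14, adjusted p = 0.772). It shares 16 bases with probe 2 of H2-K1. Whether the upstream and downstream differences themselves differ was not tested.

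H2-T22 encodes a non-classical class I chain that is bound by the receptors of some gamma-delta T cells. Its upstream probe (chr17:34145522-34145581, mm7, minus strand) and its downstream probe (chr17:34144319-34144526, crossing an intron) are shown because only the upstream one separated the genotypes; no part is in capitals.
H2-T22 upstream: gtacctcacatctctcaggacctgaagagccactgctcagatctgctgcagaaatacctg
H2-T22 downstream: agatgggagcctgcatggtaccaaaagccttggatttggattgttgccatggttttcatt

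The upstream H2-T22 probe had 1.92, 1.82 and 1.70 in LKO pools, against 2.41, 2.16 and 2.12 in control pools. All LKO pools were below all control pools, by 1.34-fold on average (difference -0.42, SE 0.12, 95% interval -0.71 to -0.13, adjusted p = 0.136). The downstream probe had 3.77, 3.61 and 3.47 in LKO pools, against 4.04, 3.80 and 3.76 in control pools. LKO pool 1 reached into the control range there, and the difference was -0.25 (SE 0.13, adjusted p = 0.306). With the value table these differences were -0.23 and -0.06. Over 16 alternative settings the upstream difference lay between -0.59 and -0.23, with adjusted p between 0.0962 and 0.720. The related gene H2-T10 had 1 probe, which differed by -0.07 (adjusted p = 0.815).

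Among the remaining class I genes, H2-M3 presents formylated peptides of bacterial or mitochondrial origin. H2-M3 probe 2 had -3.17, -3.33 and -3.29 in LKO pools, against -3.08, -3.64 and -4.36 in control pools, a difference of 0.43 (SE 0.31, adjusted p = 0.451) within a control range that spanned all LKO pools. H2-M10.2, of a family known from the vomeronasal organ, had -3.06, -3.35 and -3.14 in LKO pools, against -3.20, -3.47 and -4.13 in control pools (difference 0.42, adjusted p = 0.356). H2-D4, H2-Q7, H2-Q8 and H2-T24 had differences of -0.01, 0.02, -0.19 and 0.01. None of them separated the groups.

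**Figure D3:**
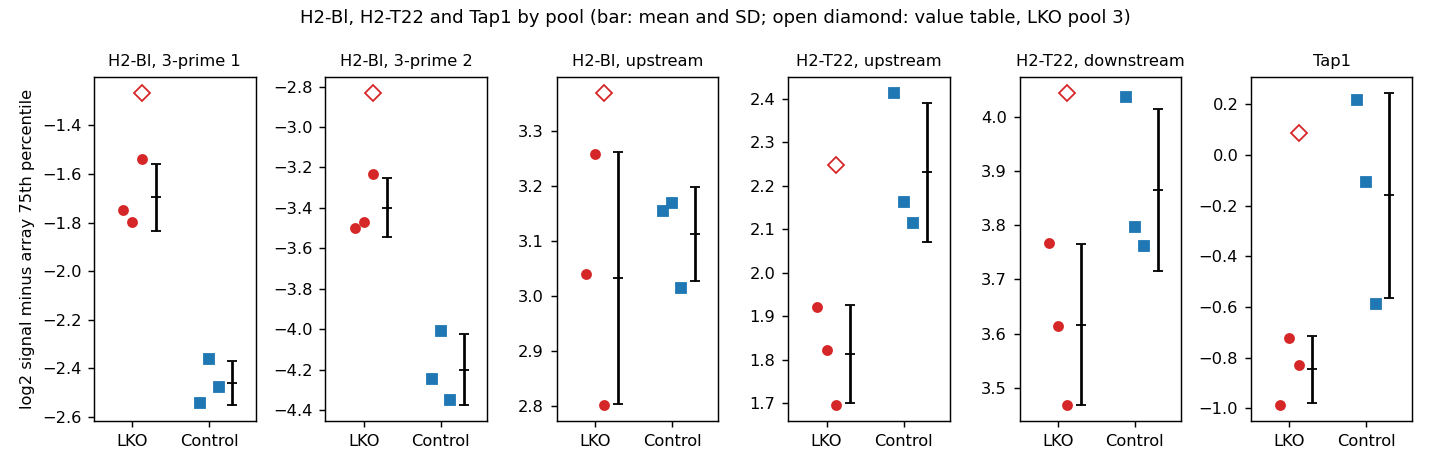
Log2 signal of the 3 H2-Bl probes, the 2 H2-T22 probes and Tap1 in each pool, with LKO on the left and control on the right of each panel; bars are mean and SD of 3 pools from the scanner files, and the open diamond is the value table's LKO pool 3. Each panel has its own axis. LKO pools lie above all control pools for the 2 downstream H2-Bl probes and below them for the upstream H2-T22 probe and Tap1; for the upstream H2-T22 probe and Tap1 the diamond falls within the control range.

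Among the light chain and peptide-loading genes, Tap1, a subunit of the peptide transporter, had the largest difference of the 7 probes, all tested. Its probe (chr17:32273751-32273810, mm7, plus strand), shown with no part in capitals, is the 1 probe of this gene on the array.
Tap1: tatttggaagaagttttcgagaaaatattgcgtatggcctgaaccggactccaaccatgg

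Tap1 had -0.99, -0.72 and -0.83 in LKO pools, against 0.22, -0.11 and -0.59 in control pools. All LKO pools were below all control pools, with control pool 3 nearest to them. The mean was -0.85 ± 0.13 in LKO and -0.16 ± 0.40 in control livers (SD, n = 3 each), 1.61-fold lower (difference -0.69, SE 0.21, adjusted p = 0.147). The value table put LKO pool 3 at 0.09, inside the control range, and the difference at -0.38. Over 17 alternative settings the difference lay between -0.90 and -0.38, with adjusted p between 0.113 and 0.720. Tap2, the partner of Tap1 in the transporter, had 1.34, 1.24 and 0.94 in LKO pools, against 0.92, 1.11 and 1.01 in control pools, which overlap (difference 0.15, SE 0.13, adjusted p = 0.533).

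B2m, the light chain of all these heavy chains, lies on chromosome 2 outside the complex. B2m probe 1 had 6.49, 6.61 and 6.46 in LKO pools, against 6.45, 6.66 and 6.78 in control pools. Probe 2 had 4.70, 4.89 and 4.78 in LKO pools, against 4.88, 4.97 and 5.01 in control pools. The groups overlapped on both, with differences of -0.11 and -0.16 (adjusted p = 0.623 and 0.380). Probe 3 had -2.48, -2.48 and -1.38 in LKO pools, against -1.96, -2.24 and -2.97 in control pools, a wide spread in both (difference 0.27, SE 0.38). Tapbp, or tapasin, holds empty class I molecules to the transporter. Tapbp probe 1 had 4.66, 4.62 and 4.32 in LKO pools, against 4.56, 4.55 and 4.47 in control pools (difference 0.00, adjusted p = 0.994). Tapbp probe 2 had 0.57, 0.29 and 0.43 in LKO pools, against 0.57, 0.76 and 0.56 in control pools (difference -0.20, adjusted p = 0.367). The median over the 7 probes was -0.11, with 3 higher and 4 lower.

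Around these, 10 of 11 listed genes of class I peptide supply and folding were measured and 0 passed the threshold, with 4 higher and 6 lower and a median difference of -0.09. Erap1, an endoplasmic reticulum peptidase that trims peptides, had 2.54, 2.56 and 2.50 in LKO pools, against 2.31, 2.14 and 2.31 in control pools (difference 0.28, adjusted p = 0.171). Calr, the chaperone calreticulin, had 4.38, 4.63 and 4.03 in LKO pools, against 4.79, 4.74 and 4.90 in control pools (difference -0.47, adjusted p = 0.181). Neither gene's groups overlapped. Of 6 class I-like genes encoded outside the complex 5 were higher and 1 lower in LKO livers, none past the threshold. Cd1d1, which presents lipids to natural killer T cells, differed by 0.09 (adjusted p = 0.576), and Procr, the endothelial protein C receptor, by 0.18 (adjusted p = 0.683).

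Class II signal was lower in LKO livers for 12 of 13 tested probes with the scanner files, by a median of -0.32, beside 47.3% lower and a median of 0.02 over all tested probes, but the pools of each genotype lay far apart. No class II probe passed an unadjusted p of 0.05, and adjusted p lay between 0.507 and 0.801 (limma). With the value table the median turned to 0.24, with 12 of 13 probes higher in LKO livers. It was -0.06 without LKO pool 3, 0.03 without control pool 1 and -0.61 without control pool 3. In that last setting 4 of 13 class II probes had an unadjusted p under 0.05, beside 4006 of 23592 tested probes. In bulk tissue, fewer cells that express a gene and less RNA per cell cannot be told apart.

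H2-Aa and H2-Ab1 encode the chains of the H2-A class II molecule. H2-Aa probe 1 (chr17:32362310-32362369, mm7, minus strand) had 0.13, 0.00 and -0.63 in LKO pools, against 0.97, 0.07 and -0.65 in control pools. With the scanner files control pool 1 was the highest and control pool 3 the lowest, so that the controls enclosed all LKO pools. The difference was -0.30 (SE 0.42, adjusted p = 0.716). The value table put LKO pool 3 at 1.20, above every other pool, and the difference at 0.31. H2-Aa probe 2 had -0.14, -0.29 and -0.88 in LKO pools, against 0.58, -0.24 and -0.89 in control pools (difference -0.25, adjusted p = 0.737).

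H2-Ab1 probe 1 had 2.75, 2.51 and 1.87 in LKO pools, against 3.42, 2.49 and 1.86 in control pools (difference -0.21, adjusted p = 0.797). H2-Ab1 probe 2, the mean of 10 spots per array, had 1.08, 0.92 and 0.44 in LKO pools, against 2.14, 1.21 and 0.51 in control pools (difference -0.47, SE 0.41, adjusted p = 0.534). Control pool 1 was the highest on both probes. Probes 3 and 4 of H2-Ab1 overlap by 31 bases and differ at 2 positions, shown in capitals, and so may respond differently to different alleles of this polymorphic chain. Counting from 1 at the 5′ end of the overlap, with the base of probe 3 (chr17:32342603-32342662, mm7, plus strand) first, the differences are T5A and T20A.
H2-Ab1 probe 3: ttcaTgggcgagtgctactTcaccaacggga
H2-Ab1 probe 4: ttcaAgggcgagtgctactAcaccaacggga
Probe 3 had -0.42, -0.76 and -0.95 in LKO pools, against 0.72, -0.28 and -1.01 in control pools. Probe 4 had -0.98, -1.81 and -2.12 in LKO pools, against -0.49, -1.59 and -1.78 in control pools. Both placed control pool 1 highest, and their differences of -0.52 (SE 0.42) and -0.35 (SE 0.42) overlapped in their intervals.

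H2-Eb1 encodes the beta chain of the H2-E molecule and H2-Ea its alpha chain, which mice of the b haplotype, C57BL/6 among them, are known not to express. H2-Eb1 had 0.63, 0.51 and -0.06 in LKO pools, against 1.54, 0.63 and 0.04 in control pools (difference -0.38, SE 0.39, adjusted p = 0.608). H2-Ea was not well above background on any of the 6 arrays.

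H2-DMa, H2-DMb1 and H2-DMb2 encode the H2-DM molecule, which exchanges the invariant-chain fragment for antigenic peptide. H2-DMa had -1.85, -1.50 and -2.38 in LKO pools, against -0.96, -1.67 and -2.20 in control pools (difference -0.30, adjusted p = 0.661). H2-DMb1 had 0.46, 0.49 and -0.08 in LKO pools, against 1.12, 0.37 and -0.12 in control pools (difference -0.17, adjusted p = 0.801). H2-DMb2 had -2.31, -2.33 and -2.66 in LKO pools, against -1.39, -2.05 and -2.69 in control pools (difference -0.39, adjusted p = 0.507). Each gene again had control pool 1 highest. H2-Oa and H2-Ob encode H2-DO, which restrains H2-DM. The 2 H2-Oa probes were dim and went opposite ways. Probe 1 had -4.00, -3.97 and -3.51 in LKO pools, against -3.62, -4.18 and -3.98 in control pools (difference 0.10, adjusted p = 0.794). Probe 2 had -4.30, -4.23 and -5.14 in LKO pools, against -3.93, -4.53 and -4.24 in control pools (difference -0.32, adjusted p = 0.531). H2-Ob was not well above background on any array.

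Cd74, the invariant chain that guides class II molecules to endosomes, is encoded on chromosome 18, away from the complex. It had 2.13, 2.30 and 2.13 in LKO pools, against 3.27, 2.51 and 1.89 in control pools. With the scanner files the LKO pools lay close together, inside the range of the controls. The mean was 2.19 ± 0.10 in LKO and 2.55 ± 0.69 in control livers (SD, n = 3 each), with a difference of -0.37 (95% interval -1.15 to 0.42, adjusted p = 0.547). The value table put LKO pool 3 at 3.30, above every other pool, and the difference at 0.02.

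The class II probes thus varied together from pool to pool. Control pool 1 was the highest of the 6 pools for 12 of 13, beside 21.0% of all tested probes. Control pool 3 was the lowest control for 11 of 13, beside 39.0%, and LKO pool 3 the lowest LKO pool for 12 of 13, beside 44.9%. Control pool 1 exceeded control pool 3 by a median of 1.38, with a range of 0.30 to 1.73. The median SD between pools was 0.37 in LKO and 0.70 in control livers for class II probes, beside 0.167 in LKO and 0.132 in control livers over all tested probes. The value table put LKO pool 3 above its scanner value for 13 of 13 probes, by a median of 1.67. Over all tested probes this held for 12830 of 23592, with a median of 0.04. In the value table LKO pool 3 was the highest of the 6 for 10 of 13 class II probes, beside 22.2% of all tested probes. The sign of the class II difference therefore turned on which version of this pool was read.

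**Figure D4:**
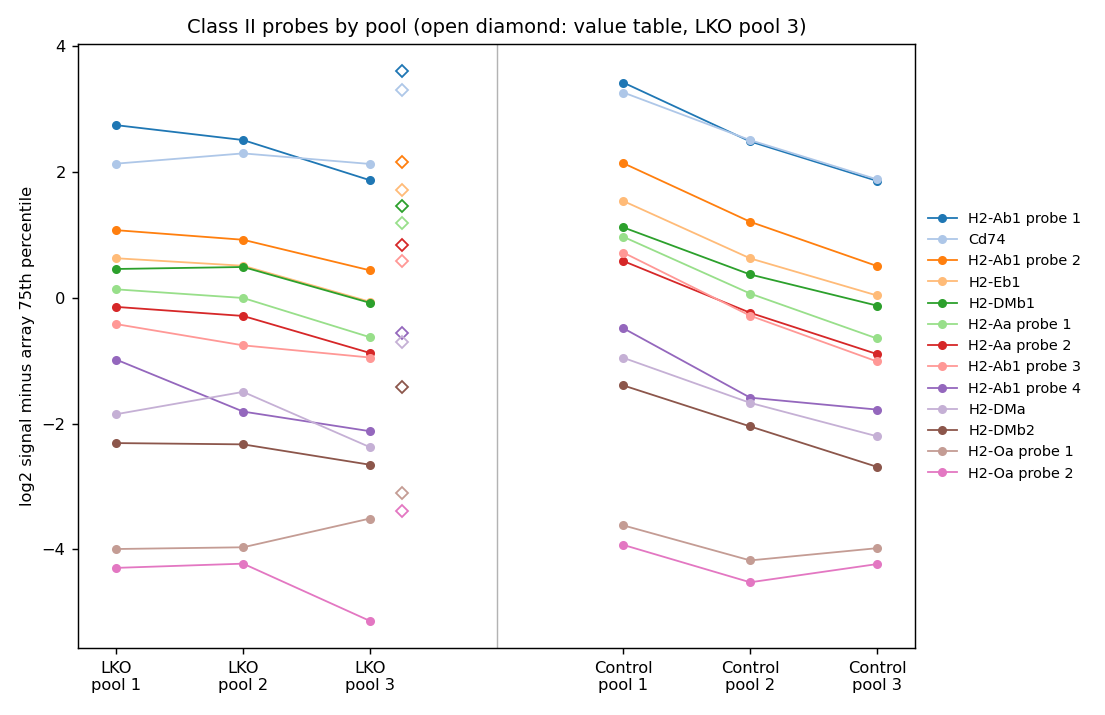
Log2 signal of the 13 tested class II probes in each LKO pool (left) and each control pool (right). Lines join values of 1 probe and imply no order of pools; open diamonds are the value table's values for LKO pool 3. Control pool 1 is the highest for 12 of 13 probes with the scanner files, and the diamonds lie above the scanner values of LKO pool 3 for all 13.

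**Figure D5:**
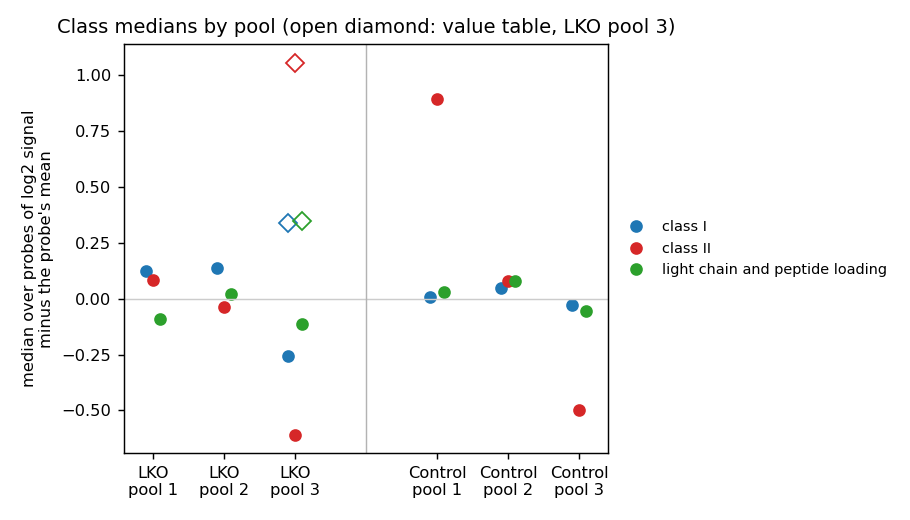
Median, over the tested probes of each class, of log2 signal minus the mean of the probe over the 6 arrays, for each LKO pool (left) and control pool (right); open diamonds are the value table's LKO pool 3. Class II runs at 0.08, -0.04 and -0.61 in LKO pools 1 to 3, with a diamond at 1.06, and at 0.90, 0.08 and -0.50 in control pools 1 to 3. Class I lies at 0.13, 0.14 and -0.26 in LKO pools, with a diamond at 0.34, and at 0.01, 0.05 and -0.03 in control pools.

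Among 8 genes that process antigen for class II or turn class II molecules over, 4 were higher and 4 lower in LKO livers and 0 passed the threshold. Ctsl, the endosomal protease cathepsin L, had 7.66, 7.61 and 7.53 in LKO pools, against 7.28, 7.33 and 7.31 in control pools, without overlap (difference 0.30, adjusted p = 0.141). Marchf8, a ubiquitin ligase that takes class II from the cell surface, had 5.57, 5.42 and 5.01 in LKO pools, against 5.10, 5.04 and 5.02 in control pools (difference 0.28, adjusted p = 0.340).

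Of 12 listed transcription factors of MHC genes 11 were measured, 6 higher and 5 lower, and 0 passed the threshold. Creb1, which binds the promoters of class II genes next to the RFX complex, had -0.86, -0.75 and -0.64 in LKO pools, against 0.10, -0.46 and -0.51 in control pools (difference -0.46, adjusted p = 0.212). Irf2, a factor of interferon-responsive promoters, differed by 0.31 (adjusted p = 0.283). Ciita, the co-activator of class II genes, is given because of its role and was chosen after its values were seen. It had -4.31, -4.42 and -4.60 in LKO pools, against -3.11, -3.87 and -4.45 in control pools (difference -0.63, adjusted p = 0.308). Here too control pool 1 was the highest and control pool 3 the lowest control. The value table put LKO pool 3 of Ciita at -3.30, below control pool 1 only, and the difference at -0.20. A further list held 13 genes of the response to interferon gamma, an inducer of both classes, and included the receptor chains Ifngr1 and Ifngr2. Of the 13, 6 were higher and 7 lower, with a median of -0.02. Control pool 1 lay above control pool 3 for 12 of 13, the exception being Ifngr2 (1.88 and 1.90). In the value table, 12 of the 13 were higher in LKO livers, with a median of 0.53, and Ifngr2 was the exception again (-0.07). Socs1 and Igtp, the 2 with the smallest p, differed by 0.23 and 0.22 (adjusted p = 0.530 and 0.670).

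Markers of the cells that can make class II molecules, and of other liver cells, are given here. Each list is described by differences and by its summed signal, given as a range over pools or pool by pool. The part of these cells in the class II values was not tested. The 5 general leukocyte markers were all measured and all lower in LKO livers, by a median of -0.25, and control pool 1 was the highest of the 6 pools for all 5. Their summed signal, in units of the array's 75th percentile, ranged over 3.24 to 4.30 in LKO and 3.53 to 5.65 in control livers. Of these, Laptm5 differed by -0.55 (adjusted p = 0.309) and Ptprc, which encodes CD45, by -0.27 (adjusted p = 0.494).

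Of 12 markers of Kupffer cells and other macrophages, 11 had lower signal in LKO livers, by a median of -0.19, with control pool 1 highest for 11 of 12. Their sum ranged over 86.0 to 107 in LKO and 78.5 to 132 in control livers. Vsig4, a complement receptor of Kupffer cells, differed by -0.46 (adjusted p = 0.235) and Lyz2, lysozyme of myeloid cells, by -0.37 (adjusted p = 0.239). The exception was the scavenger receptor Marco, named after its values were seen, at 0.52.

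Of 8 B cell markers 4 were measured, all lower in LKO livers with control pool 1 highest, and Cd79a, Pax5, Blk and Fcer2a were not above background. Their sum ranged over 0.425 to 0.541 in LKO and 0.492 to 0.938 in control livers. Ms4a1, which encodes CD20, had -4.50, -3.91 and -4.32 in LKO pools, against -2.90, -3.52 and -3.67 in control pools (difference -0.88, adjusted p = 0.130). The groups did not overlap.

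Of 9 dendritic cell markers 4 were measured and Flt3, Clec9a, Siglech, Ccr7 and Cd209a were not above background. Their sum ranged over 0.708 to 0.902 in LKO and 0.732 to 0.974 in control livers, with Xcr1 and Itgax at differences of -0.14 and -0.28. Control pool 1 was the highest of the 6 pools for 2 of these 4, and above control pool 3 for 2 of 4. Of 9 T and NK cell markers 6 were measured, 3 higher and 3 lower, and Cd8a, Ncr1 and Gzma were not above background. Their sum ranged over 0.560 to 0.959 in LKO and 0.608 to 1.02 in control livers, with Cd4 and Klrb1c at differences of -0.32 and 0.14 (adjusted p = 0.322 and 0.735). Control pool 1 was the highest for 4 of these 6. The 6 sinusoidal endothelial markers, 3 higher and 3 lower, summed to between 18.0 and 22.4 in LKO and between 18.5 and 23.4 in control livers, with Lyve1 and Kdr at differences of 0.55 and -0.22 (adjusted p = 0.254 and 0.476). The 7 hepatocyte markers, 5 higher and 2 lower, summed to 1801, 1895 and 1451 in LKO pools, against 1411, 1544 and 1708 in control pools. Control pool 1 was the highest for 0 of these 7, and above control pool 3 for 1. The value table put the hepatocyte sum of LKO pool 3 at 1916. With the value table, 4 of 5 leukocyte and 10 of 12 Kupffer cell markers were higher in LKO livers, as were 3 of 4 dendritic cell and 5 of 6 T and NK cell markers. Of the B cell markers 1 of 4 was higher there, with a median difference of -0.27. In that version LKO pool 3 summed to 8.07 for leukocyte and 167 for Kupffer cell markers. It summed to 1.42 for dendritic cell and 1.35 for T and NK cell markers. Each of these sums lay above every control pool. The B cell and endothelial sums of that pool, 0.849 and 21.2, lay inside the control range.

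Promoter sequences are given as background on these genes. The part of any promoter element in the differences between pools was not tested. RefSeq promoters of GRCm38.p6, 250 bases before to 50 after the gene start, were found for 30 of the 41 genes. The Y box, searched as CTGATTGG on both strands, is known as the site of factor NF-Y in class II promoters. It was in 12 of 18 class I and 3 of 7 class II promoters (H2-Aa, H2-Eb1 and H2-Oa), beside 4.1% of all 32851. Of the light chain and peptide-loading promoters, 1 of 3 held it (Tap1). Among the 12 class I genes, H2-D1, H2-K1, H2-Q7 and H2-T23 were measured, and the others were H2-M genes without a measured level. The kappa B site of the class I enhancer, searched as GGGATTCCC, was in H2-K1, H2-D1 and H2-Q7, or 3 of 18 class I promoters, and in none of the 7 class II promoters, beside 0.353% of all. These 3 promoters also held the Y box. The core of the interferon-stimulated response element, searched as GAAANNGAA, was in H2-T22 and H2-T23, or 2 of 18 class I promoters. It was in 0 of 7 class II and 1 of 3 light chain and peptide-loading promoters (B2m), beside 8.56% of all. H2-T23 also held the Y box. These are matches of letters and say nothing of binding. Sites spelled otherwise would be missed, so a promoter without a match may still hold such an element. The 120 bases before the start are shown for 2 class II genes and for H2-K1, with the match in capitals: H2-Aa (chr17:34287824-34287943, minus strand), H2-Eb1 (chr17:34305747-34305866, plus strand) and H2-K1 (chr17:34000348-34000467, minus strand).
H2-Aa promoter: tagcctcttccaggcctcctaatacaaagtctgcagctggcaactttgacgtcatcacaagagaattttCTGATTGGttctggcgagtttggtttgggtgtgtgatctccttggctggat
H2-Eb1 promoter: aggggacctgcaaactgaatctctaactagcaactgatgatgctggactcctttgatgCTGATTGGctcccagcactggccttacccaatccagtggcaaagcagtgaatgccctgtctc
H2-K1 promoter: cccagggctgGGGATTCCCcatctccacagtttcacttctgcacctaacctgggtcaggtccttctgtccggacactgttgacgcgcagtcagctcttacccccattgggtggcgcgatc

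Of the 14 probes that were not tested, 12 were well above background on no array. They left 11 genes without a measured level: the class II genes H2-Ea and H2-Ob, the class I genes H2-M1, H2-M9, H2-M11, H2-M10.1, H2-M10.3, H2-M10.4, H2-M10.5 and H2-M10.6, and H2-T3, which encodes the thymus leukemia antigen. Their probes and those of genes measured elsewhere lay between -8.14 and -4.37 on the 6 arrays.

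The 2 remaining genes with H2- names belong to neither class. H2-Ke6, a hydroxysteroid dehydrogenase of mitochondria, had 3.05, 3.09 and 3.16 in LKO pools, against 3.28, 3.31 and 3.34 in control pools. The groups did not overlap, and the difference was -0.21 (SE 0.09, adjusted p = 0.228). Over 17 alternative settings it lay between -0.40 and -0.19, with adjusted p between 0.122 and 0.757. H2-Ke2, now named Pfdn6 and a subunit of the chaperone prefoldin, had 3.87, 4.00 and 3.92 in LKO pools, against 3.90, 3.91 and 3.92 in control pools (difference 0.02, adjusted p = 0.922).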

How the data were processed

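Sample titles gave the groups and replicate numbers. Spot intensity in the scanner files was written by Agilent Feature Extraction, version 9.5 per the submitters' processing notes, after background subtraction and detrending within each array, per the file headers. The value table holds a single linear intensity for each probe and sample, which the labels credit to the Rosetta Resolver error model. Flags for background, saturation and outlier spots were deposited as 0 or 1.

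Control spots were dropped, outlier spots set missing, and log2 values of the spots of a probe averaged, after which the 75th percentile of the array was subtracted. The genotype difference of each probe was fitted with limma 3.58.1 in R 4.3.3 (lmFit and eBayes, two-sided, Benjamini-Hochberg, threshold 0.05). The steps were tested on simulated data. The context and marker lists use the brightest probe of a gene.

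Members and lists were chosen with earlier results of these data known. Values per pool are given for H2-K1, H2-D1, B2m, Tap1, Tap2, Tapbp, Cd74 and all class II genes, for class I probes from the 8 brightest others, and for the 10 member probes with the smallest p, since none passed. Each list gives its 2 genes with the smallest p. Of the genes so chosen, 1 is not reported here. Of the listed genes, Psme2, Nlrc5 and Serpina1a were not found by name on the array.

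Probe coordinates are those printed in the scanner files (mm7), and exons are not given because no mm7 annotation was used; promoters came from a RefSeq table of GRCm38.p6. Deviations of same-numbered pools from their group means correlated at 0.01, -0.04 and -0.09, so the numbers were not taken to pair the pools. No member probe was saturated. Alternatives were another background correction, normalization and centring, other filters, outlier spots kept, 1 probe per gene, slide and replicate blocks, another variance model, the value table, and each pool left out. The number of arrays limits the precision.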

Additional observations from a re-analysis of the deposited data

How the results depend on the processing

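The 17 alternatives gave 645 values for 39 named probes, of which 587 kept their sign and their side of the threshold, 57 changed sign without being called in either setting (17 of them with the value table, 9 without LKO pool 3 and 9 without control pool 1), and 1 passed the threshold. That 1 was H2-Bl probe 2 without LKO pool 3 (0.69, adjusted p = 0.0477, limma), so that the count of MHC probes past the threshold ranged from 0 to 1 when single pools were left out and was 0 under every other alternative.

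The class I median of 0.00 became 0.21 with the value table and ranged from -0.08 to 0.15 when single pools were left out. The class II median of -0.32 became 0.24 with the value table and ranged from -0.61 to 0.03. The median of the light chain and peptide-loading probes, -0.11, became -0.024 with the value table and ranged from -0.20 (without control pool 1) to -0.034 (without control pool 3). MHC probes at an unadjusted p under 0.05 numbered 5 of 49, beside 5008 of 23592 tested probes, and 2 to 9 under the alternatives. The 2 were of 30 MHC probes with 1 probe per gene, beside 3410 of 16123. The 9 were of 49 with the value table, beside 6197 of 23592. Over all probes, the 15 calls became 308 with the value table, 698 without LKO pool 3 (344 higher, 354 lower), 91 with an intensity trend and robust variance, 49 among probes above background on all 6 arrays, 24 with 1 probe per gene, and 0 with normexp correction, without a filter, with either block, or without any other single pool.

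The replicate numbers were not taken to pair the pools, and whether same-numbered pools were made together is not known. With the replicate number as a block, 0 MHC probes and 0 of all probes passed, and the medians were 0.00, -0.32 and -0.11. With the slide as a random block (correlation 0.31) 0 passed as well. The cause of these shifts was not tested. Standard errors of class II probes ran from 0.20 to 0.42, so differences of the size seen for class II could not be told from 0 with 3 pools per genotype.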
